A study of Mus musculus with 2 samples.

Results

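For bone morphogenetic protein (BMP) signalling, 10 genes were followed in differentiated ATDC5 cells: the ligand genes Bmp2, Bmp4, Bmp6 and Gdf5, the secreted antagonist genes Nog and Grem1, and the target genes Id1, Id2, Id3 and Id4. They were chosen by name, and their probes are the non-control spots whose accession is a RefSeq transcript of one of them. These 10 genes, of 20657 with a named probe, had 12 probes of 1 spot each. Bmp4 and Gdf5 had 2 probes, and the other 8 genes had 1.

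ATDC5 is a mouse chondrogenic cell line that forms cartilage nodules in culture. Stable ATDC5 cells overexpressing A-CEBP were compared with stable ATDC5 cells overexpressing GFP, and both transgenes were doxycycline-inducible. A-CEBP acts as a dominant negative: it dimerises with C/EBP transcription factors and prevents their binding to DNA. Both lines were given 2 µg/mL doxycycline for 2 days and were differentiated with ITS (insulin, transferrin and selenium) for 3 weeks, so doxycycline and ITS do not differ between the groups. Whether each line was 1 clone or a pool is not stated in the labels. No probe was named for either transgene, so their expression was not checked. Each group was 1 sample on 1 array, and no p-value or error between cultures could be given.

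BMP ligands bind paired type I and type II serine/threonine kinase receptors, which phosphorylate the receptor-regulated SMAD proteins, and these enter the nucleus with the common SMAD to bind target genes. Id genes are among the most direct of these targets, and their products are helix-loop-helix proteins without a DNA-binding region that sequester E proteins. In cartilage, BMP signalling drives condensation, chondrocyte proliferation and hypertrophy, and noggin and gremlin limit it by binding the ligands.

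On the A-CEBP array 58.0% of 59305 spots were well above background, as were 54.6% on the GFP array, and no spot was saturated. Of 14 chondrocyte markers, 12 were measured on both arrays, Col2a1, Acan and Sox9 among them. Col9a3 was seen on the A-CEBP array only, and Matn3 on neither. The leukocyte markers Ptprc, Adgre1 and Tyrobp were not well above background on either array, and Csf1r, Itgam, Cd3e and Lyz2 were on both. With the brightest probe of each, their log2 differences (A-CEBP minus GFP) lay between -0.83 for Lyz2 and 0.23 for Itgam. The other probe of Itgam differed by -0.57. Csf1r differed by -0.14 with its brighter probe and by 0.36 with the other. The direction of Itgam and Csf1r thus rests on the probe taken. Of 8 muscle markers, the factor genes Myod1, Myog and Myf5 were on neither array. Myf6 was on the GFP array only (at least 2.92-fold lower in A-CEBP). Its GFP reading was dim, at a log2 level of -3.65, where the lowest well above background was -4.73. Tnni2 and Acta1 were on both arrays, with differences of 1.37 and 0.79 (A-CEBP minus GFP, log2). In such bulk RNA, fewer cells of a type and less RNA per cell cannot be told apart.

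All 4 Id genes read higher in the A-CEBP sample, with Id2 at 2.02-fold and Id1 at 1.76-fold, while the antagonist gene Grem1 read 2.12-fold lower. The ligand genes were split, with Bmp4 and Bmp6 higher and Bmp2 and Gdf5 lower, none by more than 1.39-fold. Levels are given as log2 of the processed signal minus the 75th percentile of that array, and differences as A-CEBP minus GFP on that log2 scale. Each of the 10 members had a probe well above background on both arrays. Id2 alone was at least 2-fold higher (1 of 10) and Grem1 alone at least 2-fold lower (1 of 10). Among 13860 genes seen on both arrays, 1.26% passed the 2-fold rule upward, 1.7% passed it downward, and 2.96% passed it either way. The members' median difference was 0.27, with 7 of 10 above 0 and 3 of 10 below 0. Over all genes the median was 0.05, with 59.1% above 0 and 40.9% below 0. Genes are not replicates, and these counts describe 2 arrays.

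Measurement error was read in 3 ways. Where a probe was spotted repeatedly (291 probes), its differences had a root mean square SD of 0.11, which was 0.06 for the brightest probes and 0.18 for the dimmest when these were ranked in 4 groups. Where a gene had several probes (3601 genes), their differences had an SD of 0.19. For the member probes used, the error model of the scanner software gave 0.20 to 0.36. None of these covers differences between cultures.

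**Figure D1:**
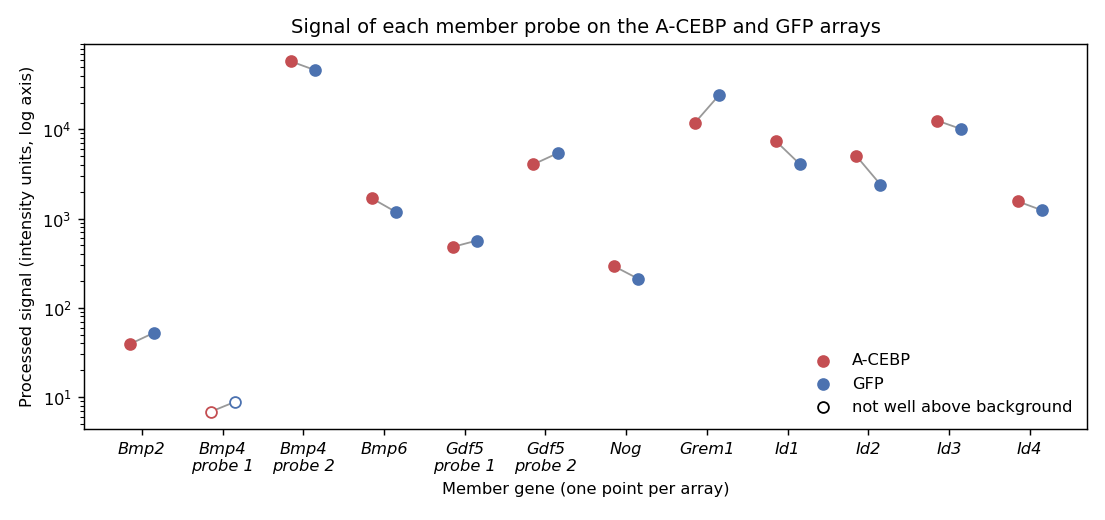
Processed signal of each of the 12 member probes in intensity units on a log axis, A-CEBP at the left and GFP at the right of each pair, 1 point per array. Id1 and Id2 are higher and Grem1 lower on the A-CEBP array, and the first Bmp4 probe, drawn open, was not well above background on either array.

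Among the ligands, Bmp4, a BMP of early cartilage, gave 57658 intensity units in the A-CEBP sample and 45967 in the GFP sample. The difference was 0.27 (1.21-fold higher), near the size of the scanner error of 0.20. The other Bmp4 probe read 6.83 units in the A-CEBP sample and 8.80 in the GFP sample and was not well above background in either. The Bmp4 value therefore rests on 1 of its 2 probes.

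Bmp6, a BMP expressed by hypertrophic chondrocytes, gave 1684 units in the A-CEBP sample and 1181 in the GFP sample, a difference of 0.46 (1.37-fold higher). Gdf5, the growth factor of joint interzones and cartilage condensations, gave 4053 units in the A-CEBP sample and 5403 in the GFP sample with its brighter probe, a difference of -0.47 (1.38-fold lower). Its dimmer probe gave 481 units in the A-CEBP sample and 567 in the GFP sample, a difference of -0.29, so both probes were lower in the A-CEBP sample. Of all genes, 5.37% were at least as far below 0 as the brighter probe.

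Bmp2, which promotes chondrocyte maturation, was dim on both arrays, at 39.2 units in the A-CEBP sample and 52.5 in the GFP sample. The pixel median of its spot was 121 over a local background of 38.5 on the A-CEBP array, and 139.5 over 44.5 on the GFP array. Its difference of -0.48 had a scanner error of 0.36, the largest among the member probes used, and shrank to -0.19 with normexp background correction. A level close to the lowest well above background on these arrays (-5.19 on A-CEBP and -4.73 on GFP, against -4.53 and -4.05 for Bmp2) limits its precision.

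The 2 antagonists went opposite ways. Grem1, which encodes gremlin, an antagonist of BMP2, BMP4 and BMP7, gave 11820 units in the A-CEBP sample and 24158 in the GFP sample. It is bright on both arrays, with pixel medians of 12208 and 25439 over backgrounds of 40 and 46 on A-CEBP and GFP. The difference was -1.09, 5.32 times the scanner error of 0.20, and 206 of 13860 genes (1.49%) were as far or farther below 0. Nog, which encodes noggin, gave 292 units in the A-CEBP sample and 211 in the GFP sample, a difference of 0.42 (1.33-fold higher). The Nog difference was 1.95 times its scanner error, and was 0.26 with normexp background.

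Of the Id genes, Id2 gave 5051 units in the A-CEBP sample and 2407 in the GFP sample. Its spot had pixel medians of 6091 and 2939.5 over backgrounds of 42 and 52 on A-CEBP and GFP. The difference of 1.02 lay just past the 2-fold rule, and 162 genes (1.17%) were as far or farther above 0. With the authors' deposited table, where Id2 has 5821 units for A-CEBP and 2985 for GFP, the difference was 0.96, and with cyclic loess it was 0.97, both under the rule. Its distance from the 2-fold rule is smaller than the scanner error, and its distance from 0 is 4.97 times that error.

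Id1 gave 7460 units in the A-CEBP sample and 4088 in the GFP sample, a difference of 0.81 (1.76-fold higher), which made it the nearest member under the rule. It reached 1.04 with scaling on spike-in spots. Of all genes, 2.27% were as far or farther above 0. Id3 gave 12573 units in the A-CEBP sample and 10090 in the GFP sample, and Id4 gave 1561 in the A-CEBP sample and 1241 in the GFP sample, with differences of 0.26 and 0.28. Both were above 0 by little more than the scanner error of 0.20, and 17.6% and 16.4% of all genes were as far or farther above 0. The 4 Id genes thus shared a direction and not a size, and each was read by 1 probe of 1 spot.

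**Figure D2:**
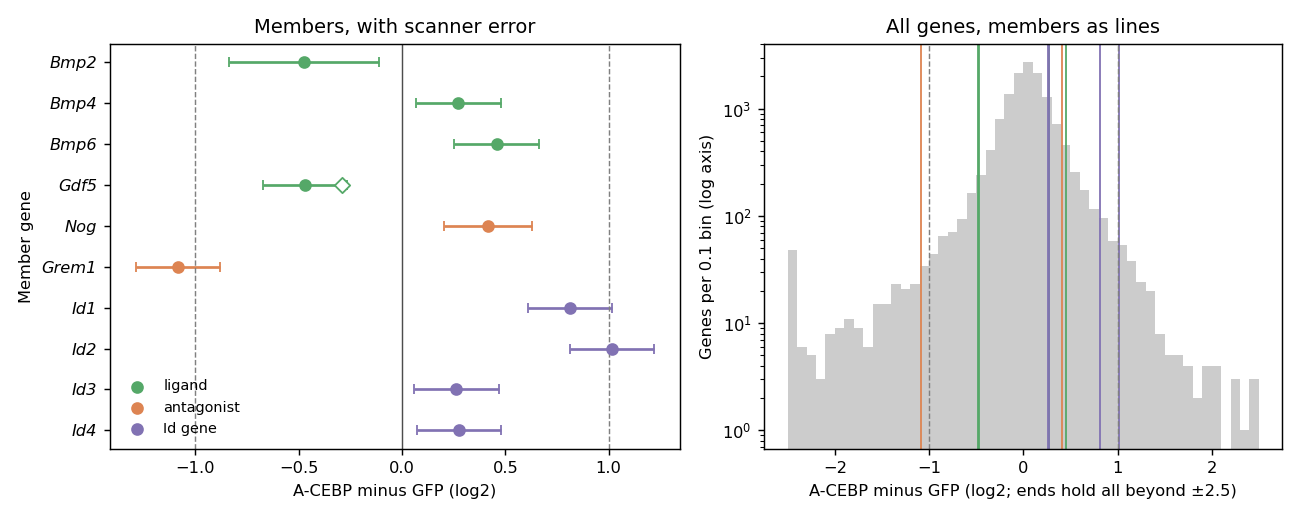
Left, the A-CEBP minus GFP difference of each member on the log2 scale with the scanner error as bars, an open diamond for the second Gdf5 probe and dashed lines at the 2-fold rule. Right, the same differences as coloured lines over the histogram of 13860 genes (log axis). Grem1 and Id2 lie just past the dashed lines and the other 8 members between them.

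A comparison between members does not depend on how whole arrays are scaled, since a constant for an array cancels. The difference of Id2 exceeded that of Grem1 by 2.10 on the log2 scale, and that of Id1 exceeded it by 1.90, so the A-CEBP to GFP ratio of Id2 was 4.29 times that of Grem1 and that of Id1 3.73 times. These were the farthest of the 45 pairs. Set against Grem1 in the same way, the ratio of Bmp6 was 2.91 times and that of Nog 2.83 times as large. The size of each such gap stays the same under any single constant per array. The pairs named were taken for their size and describe 2 arrays.

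RefSeq promoter windows (GRCm38.p6) were found for 6 of the members: Bmp4, Bmp6, Grem1, Id2, Id3 and Id4. The 250 bases before the start are shown for Id2 and Grem1, the members past the 2-fold rule in each direction, and for Id3 and Id4, the Id genes with the smallest differences. Capitals mark GGCGCC, a GC-rich SMAD element, and CAGAC (or GTCTG on the other strand), the SMAD box. The C/EBP letters TTGCNNAA were searched in the same way on both strands.
Id2 (chr12:25096093-25096342, minus strand): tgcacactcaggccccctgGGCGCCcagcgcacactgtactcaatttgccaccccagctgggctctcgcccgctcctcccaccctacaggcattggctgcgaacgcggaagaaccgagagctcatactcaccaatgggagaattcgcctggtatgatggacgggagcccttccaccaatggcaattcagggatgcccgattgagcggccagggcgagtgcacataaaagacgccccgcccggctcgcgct
Id3 (chr4:136143572-136143821, plus strand): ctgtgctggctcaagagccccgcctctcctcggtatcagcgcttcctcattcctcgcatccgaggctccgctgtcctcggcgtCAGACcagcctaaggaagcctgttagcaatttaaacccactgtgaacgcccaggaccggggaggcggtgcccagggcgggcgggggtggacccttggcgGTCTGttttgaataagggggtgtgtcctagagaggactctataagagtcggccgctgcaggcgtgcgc
Id4 (chr13:48260866-48261115, plus strand): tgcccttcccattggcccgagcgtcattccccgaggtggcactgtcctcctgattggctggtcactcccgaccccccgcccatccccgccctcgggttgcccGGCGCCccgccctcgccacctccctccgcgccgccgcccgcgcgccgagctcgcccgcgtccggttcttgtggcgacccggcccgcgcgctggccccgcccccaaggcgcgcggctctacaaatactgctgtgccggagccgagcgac
Grem1 (chr2:113758649-113758898, minus strand): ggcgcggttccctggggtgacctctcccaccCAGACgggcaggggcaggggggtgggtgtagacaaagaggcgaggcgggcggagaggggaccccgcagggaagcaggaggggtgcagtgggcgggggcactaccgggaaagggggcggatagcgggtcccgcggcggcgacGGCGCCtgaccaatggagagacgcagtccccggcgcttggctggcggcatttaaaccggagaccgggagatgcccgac
GGCGCC occurred once each in Id2, Id4 and Grem1, and in 9.59% of all 32851 windows of this length. CAGAC occurred 2 times in Id3 and once each in Grem1 and Bmp6, and in 42.2% of all windows. The genes with GGCGCC in their windows, Id2, Grem1 and Id4, differed by 1.02, -1.09 and 0.28. Whether any of these letters bears on a difference was not tested, and bases outside these 250 were not searched. TTGCNNAA was in none of the 6 windows and in 9.56% of all, which says only that these letters are not in these bases. The 6 windows held 62.8% to 75.6% G and C, against a median of 52.4% over all windows.

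Around these members, 73 other genes of the pathway were listed in 6 roles, of which 58 were measured on both arrays. Only Hes1 among them was at least 2-fold higher and none was at least 2-fold lower, beside 1.26% and 1.7% of all genes. Their median was 0.18, with 45 of 58 (77.6%) above 0, beside a median of 0.05 and 59.1% above 0 over all genes. Spike-in scaling added a constant of 0.23 to every difference, and the authors' deposited table one of -0.05. Such a constant moves both medians alike and leaves the gap between them as it is. Counts above 0 do depend on how the arrays are scaled, for these genes and for all genes.

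Of 10 other ligands, 7 were not well above background on either array. Bmp8a differed by 0.59. Gdf6 differed by -0.87 and was dim, at -3.99 in the A-CEBP sample and -3.12 in the GFP sample. Gdf7 differed by -0.49 with its brighter probe and by 0.54 with the other, so its direction rests on the probe taken. Of 15 other antagonists and modulators, 12 were measured, with 7 above 0 and a median of 0.09. Chrdl2, a chordin-like antagonist, differed by 0.91 (1.87-fold higher), and Bmper, a secreted BMP-binding protein, by -0.53. The activin and BMP binder Fst differed by -0.33 and its relative Fstl3 by 0.35. Of the 12, 5 (41.7%) were below 0, near the 40.9% of all genes.

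Of 12 receptor genes 9 were measured, and with the brightest probe of each they lay between -0.01 and 0.32, with a median of 0.13. The other probe of Acvr2a, a type II receptor gene, differed by -0.62 where its brighter one differed by 0.13, so its direction rests on the probe taken. The type I receptor gene Bmpr1a differed by 0.32 and Acvr1 by 0.13, the type II receptor gene Bmpr2 by 0.19 and the co-receptor gene Rgma by 0.21. Among SMADs and their regulators, 11 of 13 (84.6%) were above 0, against 59.1% of all genes, with a median of 0.17. Smad6, which encodes an inhibitory SMAD and is itself induced by BMP, differed by 0.65 (1.57-fold higher), and Smad9, encoding a BMP-activated SMAD, by 0.58. Smad9 was dim, at -2.71 in the A-CEBP sample and -3.29 in the GFP sample. Tob1, encoding a repressor of BMP SMADs, differed by 0.35, and Smurf1, encoding a ubiquitin ligase for SMADs, by -0.48. Ski was seen in the A-CEBP sample only, and its bound of at least 1.16-fold higher was under the 2-fold rule.

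Other transcriptional targets were mostly higher, at 11 of 12 (91.7%) above 0, against 59.1% of all genes, with a median of 0.40. Hes1, a basic helix-loop-helix repressor best known as a Notch target, differed by 1.18 (2.27-fold higher) but was dim, at -2.81 in the A-CEBP sample and -3.99 in the GFP sample, and fell under the rule with normexp background. The osteogenic factor gene Sp7 differed by 0.89, the homeobox genes Dlx5 and Msx1 by 0.76 and 0.44, and Gata2 by 0.43. Sp7 is also in the osteoblast marker list, and Runx2 in the hypertrophic one. Runx2 differed by 0.37 with its brighter probe and by 0.05 with the other. Of 9 measured E proteins and other bHLH factors, which Id proteins bind or oppose, 8 (88.9%) were above 0. Their median was 0.10, beside 0.05 over all genes. Scx, the tendon factor gene, differed by 0.43, Twist1 by 0.28 and Twist2 by -0.37.

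**Figure D3:**
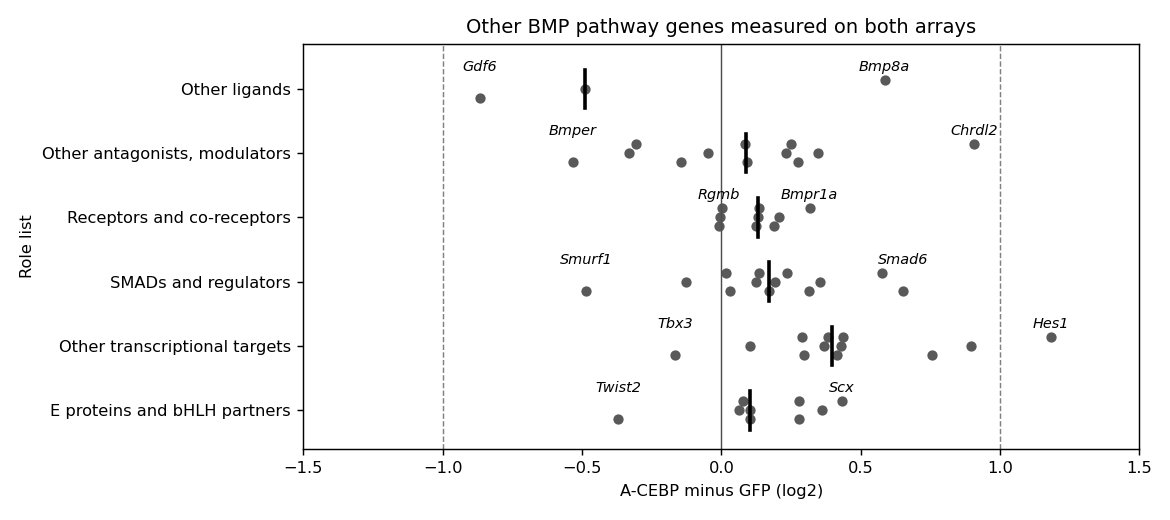
A-CEBP minus GFP difference (log2) of the 58 other BMP pathway genes measured on both arrays, by role, with the median as a black bar, the lowest and highest gene named and dashed lines at the 2-fold rule. Only Hes1 lies past a dashed line, and the receptor genes, each drawn by its brightest probe, lie between -0.01 and 0.32; the other Acvr2a probe, at -0.62, is not drawn.

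Markers of cell state differed beside these genes. Over all genes, 59.1% were above 0 and the median was 0.05. Of 12 measured chondrocyte markers 11 were above 0, with a median of 0.63, and their summed linear level was 548 in the A-CEBP sample and 378 in the GFP sample, in multiples of the 75th percentile. Among them Hapln1 differed by 1.42, Snorc by 1.37, Acan by 1.30 and Sox9 by 0.61. Smaller differences were 0.28 for Col11a2 and 0.30 for Col9a2, and Comp was the 1 marker below 0, at -0.04. Col2a1 made up 73.5% of that sum in A-CEBP and 79.2% in GFP, and without it the sums were 145 in A-CEBP and 78.7 in GFP. Of 8 hypertrophic markers 6 were above 0, with a median of 0.52 and summed levels of 408 in both samples. The brightest of them, Spp1, weighed most in both sums. It was at 7.58 in A-CEBP and 7.97 in GFP on the log2 scale, a difference of -0.40. Equal sums thus do not mean equal levels of each marker. Ihh differed by 1.56 and the collagenase gene Mmp13 by -1.07. Of 6 osteoblast markers 5 were above 0, with a median of 0.39 and summed levels of 430 in A-CEBP and 336 in GFP. The perichondrial, fibroblast and tendon list had 4 of 7 measured above 0, a median of 0.08 and summed levels of 39.0 in A-CEBP and 31.5 in GFP, with Tnmd not well above background on either array. Its members lay on both sides of the 2-fold rule, with Cd34 at 1.43 and Pi16 at -1.76. Of 6 adipocyte markers, Fabp4 differed by -1.92, Cfd by -0.18 and Pparg by 0.31. Adipoq and Plin1 were seen in A-CEBP only, with no bound of 2-fold, and Lep on neither array; the measured members summed to 7.44 in A-CEBP and 8.73 in GFP. The 3 joint markers are the member Gdf5 itself, Prg4 and Erg, and the last 2 differed by -1.53 and 0.68. The list summed to 4.71 in A-CEBP and 6.47 in GFP. Gdf5, at 2.16 in A-CEBP and 2.63 in GFP on the log2 scale, made up most of both sums. These sums thus largely repeat the Gdf5 difference. Prg4 and Erg were dim, Prg4 at -4.11 in A-CEBP and -2.58 in GFP, and Erg at -2.48 in A-CEBP and -3.16 in GFP. The part of these shifts in the values of the Id genes, Grem1 and Gdf5 was not tested.

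The spike-in scaling moved the median of all genes to 0.27, against 0.05 with the 75th percentile. It turned the split of genes at least 2-fold apart to 67.6% higher (356 higher and 171 lower), against 42.4% with the 75th percentile (174 higher and 236 lower). Of the 11 alternatives, 3 left every member read by 1 probe at its value by construction, 5 shifted all genes by 1 constant, and 3 changed values gene by gene. The 5 constants lay between -0.05 and 0.23. The member differences nearest 0 were 0.26 for Id3 above it and -0.47 for Gdf5 below it. These constants thus could not turn the sign of any member. Under the 3 that changed values gene by gene, no member changed sign. Relative to the median of all genes under the same setting, Id2 ranged from 0.97 to 1.02, Id1 from 0.76 to 0.82 and Grem1 from -1.17 to -1.08. On this measure the 5 constants cancel. The upper end of each range came from dropping the detection filter, which moved only the median of all genes, to -0.01. The narrow ranges therefore rest on few settings that could move these genes themselves.

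**Figure D4:**
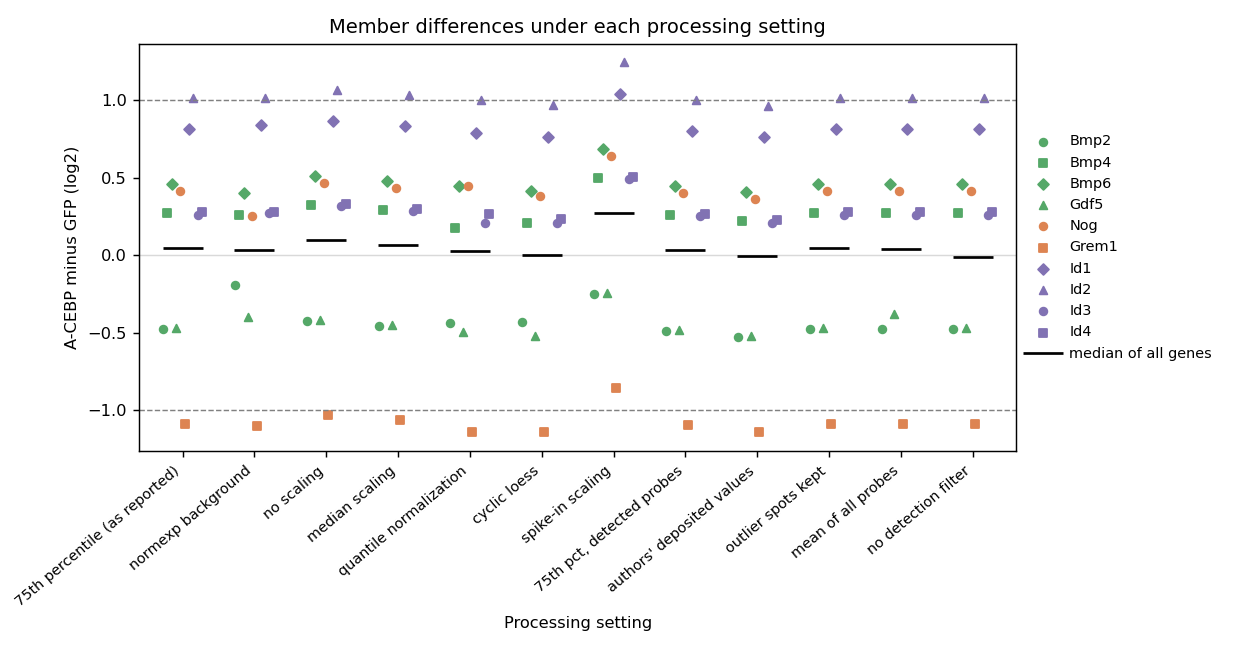
A-CEBP minus GFP difference (log2) of each member under the reported setting and 11 alternatives, with the median of all genes as a black bar and dashed lines at the 2-fold rule. Spike-in scaling lifts all members together, Id1 past the rule to 1.04 and Grem1 inside it to -0.86, and no member crosses 0.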

How the data were processed

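RNA of 2 samples, 1 per group, was labelled with Cy3 and read on Agilent arrays in 1 colour, per the labels' protocols. The authors' deposited scanner files hold intensity on a linear scale, background-subtracted and detrended within each array per the file headers, by Agilent Feature Extraction 10.10.1.1 per the submitters' processing notes. Both arrays were on 1 slide and 1 scan. The authors' deposited table holds the same intensity times a constant (1.15 for A-CEBP, 1.24 for GFP); no source used here gives how it was chosen, and the values are linear and uncentred, with column medians of 67.4 for A-CEBP and 70.9 for GFP.

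From these, log2 of the processed signal minus the 75th percentile over non-control spots was taken. Outlier spots (293) were left out, replicate spots averaged, and a probe was detected when over 50% of its spots were well above background. Of 55671 probes, 27229 (48.9%) matched 1 RefSeq gene (GRCm38.p6). A gene took its brightest probe detected on both arrays; a gene seen on 1 array has a lower bound. With 1 array per group there is no test, only a size rule of 2-fold. All 10 members are named, and from each role list genes past the rule or seen on 1 array with a 2-fold bound, plus up to 4 with the largest differences; Ski, Col9a3 and other markers not detected, and markers given as values, were named after their values were seen. Members and lists were chosen with earlier results of these data known. With 2 arrays no likeness of pattern could be measured. Normexp (limma 3.58.1, R 4.3.3, offset 50) used pixel medians, as the planned mean column was not used here. The steps were tested on simulated data. Values of some listed genes are not reported here.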

Additional observations from a re-analysis of the deposited data

How the results depend on the processing

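Keeping outlier spots, averaging probes and dropping the detection filter could not change a member read by 1 probe. Under the other 8 alternatives each member kept its direction, and 5 of these added constants too small to turn any sign. Id2 was at least 2-fold higher under 6 of the 8 and Grem1 at least 2-fold lower under 7. Members at least 2-fold higher numbered 0 with cyclic loess and with the authors' deposited values, and 2 with spike-in scaling, where 0 were at least 2-fold lower and the members' median was 0.50. Other BMP targets at least 2-fold higher numbered 0 with normexp background and 2 with spike-in scaling, where 1 other antagonist also passed; without the detection filter 1 other ligand passed. Over all genes, those at least 2-fold higher numbered 97 with normexp background, 356 with spike-in scaling and 603 without the detection filter, where 883 were lower. That filter's removal adds dim probes by construction, and spike-in scaling and the authors' values shift every difference by 1 constant (0.23 and -0.05), as no scaling, the median and the percentile over detected probes do; for normexp and cyclic loess the cause was not tested. Values were taken as moved past 0.19, the SD between probes of a gene.

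No paired analysis was possible because each group was 1 array, which also left no replicate to leave out. The number of arrays limits the precision of every value. Low signal further limits dim genes, among them Bmp2, Gdf6, Hes1, Smad9, Prg4, Erg, Cfd, Lyz2 and Myf6.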
